A study of Mus musculus with 18 samples.

Results

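The growth arrest genes described here are the BTG and TOB genes Btg1, Btg2, Btg3, Tob1 and Tob2 and the GADD45 genes Gadd45a, Gadd45b and Gadd45g. They were chosen by name, and every probe set whose annotated symbol was one of these 8 genes was taken. A probe set is a group of short probes on the array that reads one transcript or a few related ones. Of the 8 genes, 7 had probe sets of their own, 17 in all, of 45037 probe sets and 18193 genes on the array. The BTG and TOB genes held 12 of them (Btg1 3, Btg2 2, Tob1 2 and Tob2 5) and the GADD45 genes held 5 (Gadd45a 1, Gadd45b 3 and Gadd45g 1). The single probe set for Btg3 was annotated to both Gm7334 and Btg3, so it was left out of the counts and its values are given apart. Probe sets of a gene are numbered below in order of their mean signal, the brightest first.

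RNA of the mouse cell line TKO, labelled as having dysfunctional telomeres, was measured on 18 Affymetrix arrays, 3 in each of 6 groups. Cells carrying p53ER, in which the tumour suppressor p53 is joined to an estrogen receptor and becomes functional with 4-hydroxytamoxifen (4-OHT), were sampled after 4 h with 100 nM 4-OHT, after 4 h with vehicle and at 0 h. Uninfected TKO cells were sampled in the same 3 ways, and the stated purpose of the 4 h time point was to list candidate direct targets of p53. All groups share the telomere defect of the line. The labels do not give the promoter that drives the fusion, the number of clones, or where the replicates came from, and the p-values therefore reflect array-to-array spread that may be technical only. The uninfected cells carried no empty vector, so between the cell types the presence of the construct and the activity of the fusion cannot be told apart.

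BTG and TOB proteins slow cell proliferation. Their shared N-terminal domain binds the catalytic subunits of the CCR4-NOT complex, which shortens the poly(A) tails of mRNAs, and TOB proteins also bind the poly(A)-binding protein directly. GADD45 proteins are small acidic stress proteins that bind the cell cycle kinase Cdk1, the replication clamp Pcna and the p53 target p21, and that activate the kinase Map3k4 upstream of p38 and JNK. Btg2 and Gadd45a are known p53 targets in human and mouse cells. Gadd45b and Gadd45g are better known as genes induced by cytokines, and Gadd45b also by NF-kB signalling.

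The promoters of Btg2 and Gadd45a are shown because these are the members best known as p53 targets, and Btg2 was the member with the clearest difference between the p53ER groups. Each sequence holds the 250 bases before the annotated start of the gene in RefSeq, build GRCm38.p6, read 5′ to 3′ on the gene's own strand. Capitals mark the cAMP response element TGACGTCA, bound by CREB and ATF factors, in Btg2 and an exact p53 half-site in Gadd45a.
Btg2, chr1:134079156-134079405, minus strand: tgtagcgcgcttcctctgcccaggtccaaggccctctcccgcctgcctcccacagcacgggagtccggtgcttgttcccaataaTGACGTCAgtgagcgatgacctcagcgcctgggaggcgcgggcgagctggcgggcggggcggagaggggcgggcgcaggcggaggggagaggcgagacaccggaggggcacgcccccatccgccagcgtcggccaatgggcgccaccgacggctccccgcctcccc
Gadd45a, chr6:67037408-67037657, minus strand: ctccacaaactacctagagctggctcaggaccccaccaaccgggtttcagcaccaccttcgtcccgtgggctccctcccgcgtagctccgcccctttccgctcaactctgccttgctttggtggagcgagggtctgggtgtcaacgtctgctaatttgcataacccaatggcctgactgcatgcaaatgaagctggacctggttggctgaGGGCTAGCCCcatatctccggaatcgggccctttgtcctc

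The table of promoters matched 8 of the 8 genes with 9 promoters, Btg3 having 2. Both strands were searched for 4 motifs: the p53 half-site, TGACGTCA, CCAAT and TATAAA. The exact p53 half-site lay 40 to 31 bases before the start of Gadd45a and in none of the other member promoters, and 7.13% of 32851 promoters of the same length held one. TGACGTCA lay 166 to 159 bases before the start of Btg2 and in no other member promoter, and 1.55% of promoters held it. Neither match overlapped another of the motifs. TATAAA was present in the promoters of Btg1, Tob1, Gadd45b and Gadd45g, against 12.4% of all promoters. CCAAT was present in 8 of the 9 member promoters, with Tob2 the exception, against 33.8% of all. A match is a run of letters in this window and was not tested as a binding site.

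The arrays differed in overall level before scaling, with a 2% trimmed mean between 47.5 and 148, and each was scaled to a common 82.7. The 3′ to 5′ ratio, a sign of RNA quality, lay between 1.00 and 1.22 for actin and between 0.782 and 0.950 for Gapdh. Along the leading principal component (19.0% of the variance) 3 arrays lay farthest from the median: uninfected 0 h replicate 2, p53ER vehicle replicate 1 and p53ER 0 h replicate 3. The p53 targets used to check the fusion were higher in p53ER cells with 4-OHT than with vehicle, by a log2 change of 2.92 (SE 0.40) for Mdm2, which encodes the p53 ubiquitin ligase, 2.19 (SE 0.49) for Cdkn1a, which encodes p21, and 2.11 (SE 0.58) for Ccng1, which encodes cyclin G1, with limma adjusted p of 0.0188, 0.719 and 0.940. Another probe set of Ccng1 was called with an adjusted p of 0.0247, and with the replicate number as a block the adjusted p of Cdkn1a was 0.00256. Of 9 mesenchymal marker genes, 9 were among the brighter 60% of probe sets (median percentile 99.5), as were 4 of 6 epithelial (54.0), 3 of 5 blood (45.2) and 2 of 4 endothelial markers (41.9).

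Values below are MAS5 signals after this scaling, in arbitrary units, and changes are differences of log2(signal + 4.13), where the offset is 5% of the common trimmed mean and makes changes of dim probe sets smaller. Tests are limma's moderated test over all 45037 probe sets, adjusted by Benjamini-Hochberg with a threshold of 0.05. In bulk RNA, a higher signal in each cell and a larger share of cells with the transcript cannot be told apart.

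In p53ER cells, 4-OHT against vehicle was the comparison meant to show the effect of active p53. Btg2 was the member with the clearest difference, 1.90-fold and 1.77-fold by its 2 probe sets, and Tob1 came next, while the log2 changes of Btg1, Tob2, Gadd45a, Gadd45b and Gadd45g by their brightest probe sets lay between -0.26 and 0.23. None of the differences passed the threshold. By limma, 0 of the 17 probe sets were called, where 0.00888% of all probe sets were, and at an unadjusted p under 0.05 there were 2, both of Btg2 and both higher, against 4.09% of all. The median log2 change was 0.07 over the 17 probe sets and 0.03 over all probe sets.

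**Figure D1:**
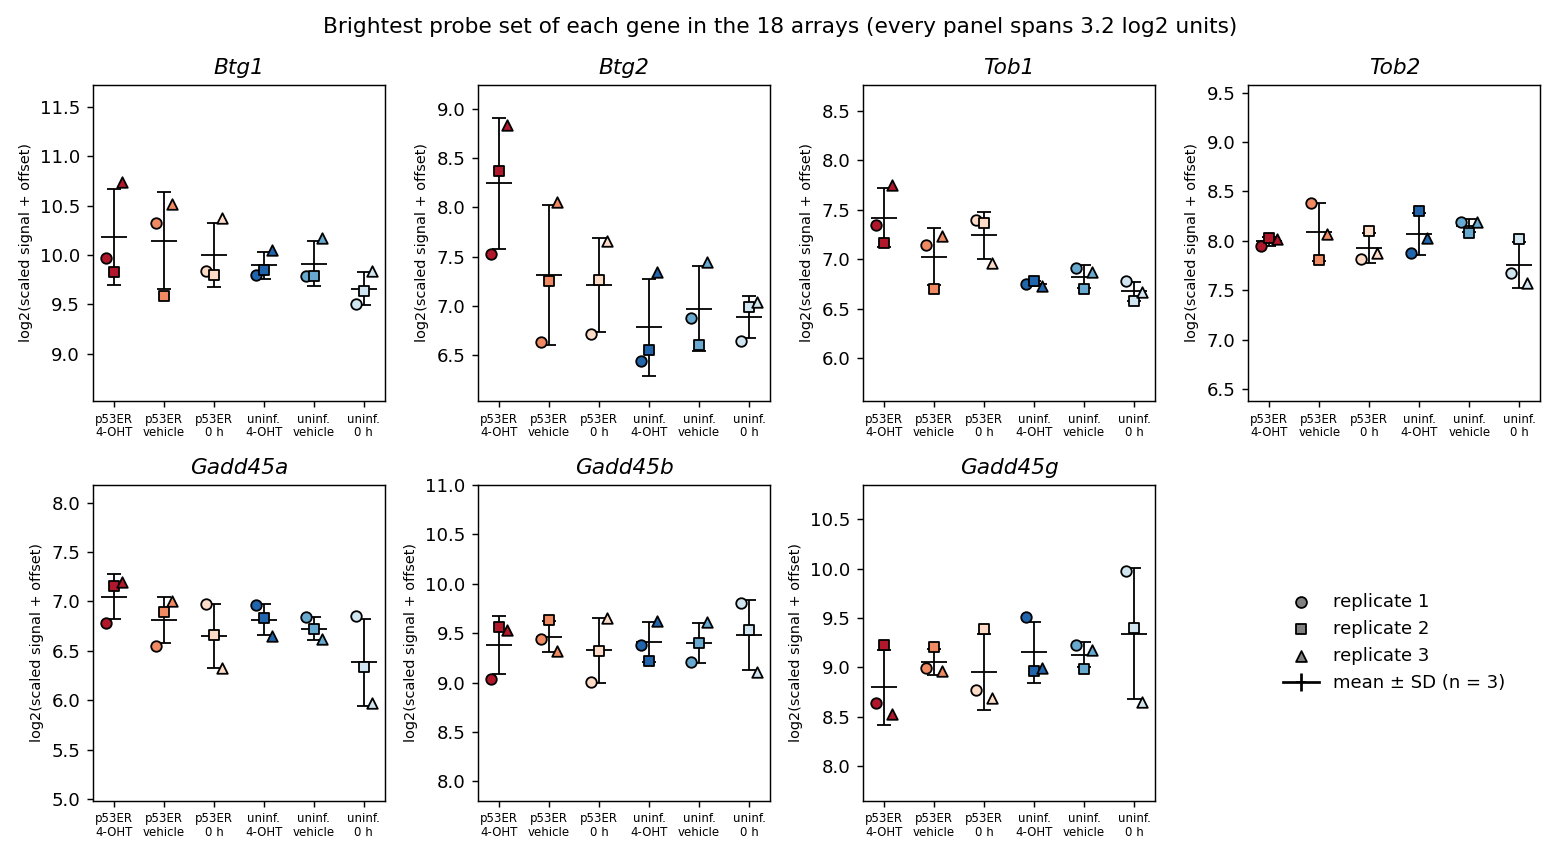
Log2 signal of the brightest probe set of each of the 7 genes in the 18 arrays, by group on the x axis, with symbols for the replicate number and a bar for the mean and SD of 3 arrays. Btg2 averaged 8.24 in p53ER cells with 4-OHT, above the means of the other 5 groups, and the other genes show groups that mostly overlap.

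Btg2, an immediate early gene and p53 target that recruits the deadenylase, was read by both of its probe sets. By probe set 2 its signal was 166, 168 and 231 in p53ER cells with 4-OHT, against 87.1, 91.3 and 139 in p53ER cells with vehicle. Every 4-OHT array lay above every vehicle array, as did 5.02% of all probe sets, and this was the only one of the 17 to do so. The log2 means were 7.57 ± 0.26 with 4-OHT and 6.75 ± 0.36 with vehicle (SD, n = 3 each). The log2 change was 0.82 (SE 0.23, 95% interval 0.33 to 1.31), or 1.77-fold, with an unadjusted limma p of 0.00215 and an adjusted p of 0.940. It stood at rank 102 of all probe sets by p.

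By probe set 1 the signal of Btg2 was 180.1, 326 and 452 with 4-OHT, against 95.5, 148 and 262 with vehicle in p53ER cells. These ranges overlapped, with replicate 3 high and replicate 1 low under both treatments. The log2 change was 0.92 (SE 0.36, interval 0.16 to 1.68), or 1.90-fold, with an unadjusted limma p of 0.0195 and an adjusted p of 1.00. Between arrays of the same replicate number, the 4-OHT array was higher by 0.89, 1.11 and 0.77 by this probe set and by 0.90, 0.85 and 0.71 by probe set 2. The 4-OHT array was thus higher in all 3 pairs by both probe sets, which read the same gene on the same arrays. Over the 18 arrays the log2 signals of the 2 probe sets correlated with r = 0.82.

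One of the arrays that lay apart, p53ER vehicle replicate 1, enters these changes. Left out on its own, it moved the change of probe set 1 more than 1.5 times, to 0.59. With all 3 of the outlying arrays left out, the change of Btg2 was 0.59 by probe set 1 and 0.70 by probe set 2, against 0.92 and 0.82 with all arrays. Leaving out p53ER vehicle replicate 3 in its place gave 1.30 and 1.03. The change was positive whichever single array was left out, and the lowest adjusted limma p was 0.495.

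**Figure D2:**
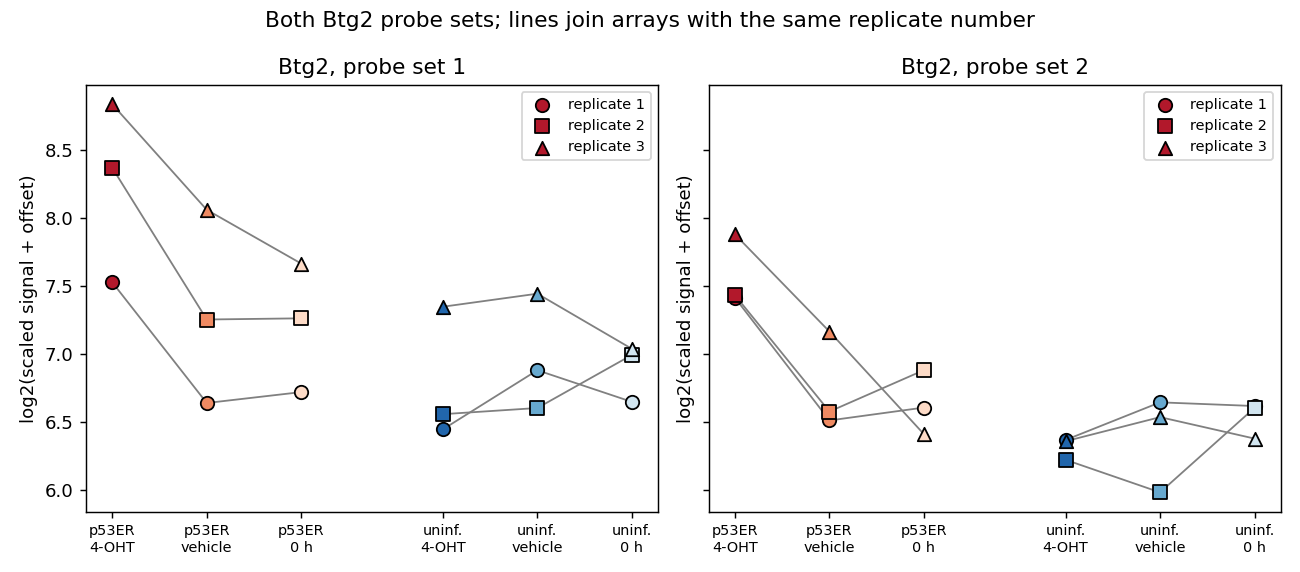
Log2 signal of both Btg2 probe sets by group, with lines joining arrays of the same replicate number within p53ER cells (left of each panel) and uninfected cells (right). In each of the 3 lines of p53ER cells the 4-OHT array lies above the vehicle array, by 0.71 to 1.11, and in uninfected cells these differences run from -0.43 to 0.24.

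In uninfected cells Btg2 was not higher with 4-OHT than with vehicle on average. Its signal by probe set 2 was 78.5, 70.5 and 77.9 with 4-OHT, against 95.9, 59.1 and 88.6 with vehicle. By probe set 1 it was 83.0, 90.0 and 159 with 4-OHT, against 113.6, 93.0 and 169.8 with vehicle. The groups overlapped by both probe sets, with log2 changes of -0.07 (interval -0.56 to 0.42) and -0.19 (interval -0.95 to 0.57). The change with 4-OHT was larger in p53ER than in uninfected cells by 0.89 (SE 0.33, interval 0.20 to 1.58) by probe set 2 and by 1.12 (SE 0.52, interval 0.04 to 2.19) by probe set 1. The unadjusted limma p of this difference was 0.0137 and 0.0424 and the adjusted p was 1.00 for both. Without the outlying arrays the difference was 0.77 by probe set 2 and 0.78 by probe set 1.

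Over all members, the uninfected cells had 0 of 17 probe sets called by limma with 4-OHT against vehicle, as 0% of all probe sets were, and 0 at an unadjusted p under 0.05, against 2.16%. No member probe set had all 4-OHT arrays above all vehicle arrays there, against 3.83% of all. In the difference of the 4-OHT effect between the cell types 0 of 17 were called, against 0.00222% of all, and 2 passed an unadjusted p of 0.05, against 2.76%. Those were the Btg2 probe sets. The members' median was -0.01 in uninfected cells and 0.06 for the difference, and that of all probe sets was 0.01 and 0.02.

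Btg2, chosen here as the member with the clearest difference, was set against the others array by array, as its log2 signal minus that of each other gene, by their brightest probe sets. In p53ER cells the change of Btg2 exceeded that of Tob1 by 0.53, of Gadd45a by 0.69, of Btg1 by 0.89, of Gadd45b by 1.01, of Tob2 by 1.02 and of Gadd45g by 1.18. The exact two-sided permutation p was 0.4 for Tob1 and 0.2 for each of the other 5, but 0.1 is the smallest that 3 arrays against 3 allow, so this test could not have passed 0.05 and settles nothing either way. Between p53ER arrays of the same replicate number the change of Btg2 was the larger in all 3 pairs against each other gene, by 0.26 to 1.33. These comparisons reuse the same 3 differences of Btg2, which was chosen by its change here, so they give no separate support.

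Tob1, which joins mRNAs to the deadenylase, was the next member in size. By probe set 1 the signal was 159, 139 and 211 in p53ER cells with 4-OHT, against 137, 99.7 and 147 with vehicle. The ranges overlapped, and each 4-OHT array was above the vehicle array of its number, by 0.21, 0.46 and 0.51. The log2 change was 0.40 (SE 0.21, interval -0.03 to 0.82) with an unadjusted limma p of 0.0685 and an adjusted p of 1.00. It was 0.23 without p53ER 4-OHT replicate 3 and also 0.23 without p53ER vehicle replicate 2. Probe set 2 was dim, at signals of 1.73 to 25.0 in all 18 arrays, and 33.2% of the array's probe sets had a mean at or below its own. Its change was 0.93 (interval -0.20 to 2.07), and 1.63 without the outlying arrays, which include its highest vehicle value. Without them the change of probe set 1 was 0.45. In uninfected cells the signal of probe set 1 was 103, 106 and 102 with 4-OHT, against 116, 99.4 and 113 with vehicle, a change of -0.07 (interval -0.50 to 0.36).

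Btg1, a close relative of Btg2 that also binds the deadenylase, was among the brightest members. Its signal by probe set 1 was 998, 908 and 1705 with 4-OHT in p53ER cells, against 1275, 765 and 1462 with vehicle. The groups overlapped, with a log2 change of 0.04 (interval -0.48 to 0.55). Probe set 2 gave 0.11 (interval -0.49 to 0.70), and the dim probe set 3 gave 0.90 (interval -0.24 to 2.04). That last value rests on signals of 24.2, 33.3 and 38.4 with 4-OHT, against 15.7, 4.26 and 37.6 with vehicle, the second of which is near the offset. Without p53ER vehicle replicate 1 the changes of probe sets 1, 2 and 3 were 0.13, 0.39 and 0.93.

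Tob2, the other TOB gene, was measured by 5 probe sets, and the signal of probe set 1 was 242, 257 and 255 with 4-OHT in p53ER cells, against 331, 219.5 and 265 with vehicle. The 4-OHT arrays lay within the range of the vehicle arrays, and the log2 change was -0.09 (interval -0.48 to 0.29). Its other 4 probe sets had changes of -0.17 to 0.07, with intervals that all held 0. The 5 did not follow one another closely over the 18 arrays, the correlations of their log2 signals running from -0.40 to 0.64, against 0.82 for the Btg2 pair. Without p53ER vehicle replicate 1 the changes of the 5 lay between -0.11 and 0.056.

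The probe set annotated to both Gm7334 and Btg3 was bright and even. Its signal was 880.4, 853 and 874 in p53ER cells with 4-OHT, against 925, 935 and 955 with vehicle. Every 4-OHT array lay below every vehicle array, as for 1532 of all 45037 probe sets. The probe set had a log2 change of -0.11 (interval -0.41 to 0.19, unadjusted limma p of 0.448 and adjusted p of 1.00). It was higher with vehicle than at 0 h by 0.29 in p53ER cells and by 0.31 in uninfected cells, with unadjusted limma p of 0.0579 and 0.0407 and adjusted p of 1.00 and 0.743. How much of the signal came from Btg3 was not tested.

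Gadd45a, the GADD45 gene best known as a p53 target, had signals of 106, 139 and 143 in p53ER cells with 4-OHT, against 89.6, 114 and 124 with vehicle. Each p53ER array with 4-OHT was above the vehicle array of its number, by 0.23, 0.27 and 0.19, and so it was in uninfected cells, by 0.12, 0.11 and 0.04. The p53ER groups overlapped. In p53ER cells the log2 change was 0.23 (SE 0.24, interval -0.27 to 0.73), with an unadjusted limma p of 0.342 and an adjusted p of 1.00. In uninfected cells its signal was 121, 109.6 and 96.6 with 4-OHT, against 110.4, 101 and 93.8 with vehicle, a change of 0.09 (interval -0.41 to 0.59). The change was larger in p53ER cells by 0.14 (interval -0.56 to 0.85). This interval holds a smaller change in p53ER cells, no difference, and a 1.80-fold larger change. Without p53ER vehicle replicate 1 the change in p53ER cells was 0.10, and the p53ER change exceeded the uninfected one by 0.010. Without p53ER 4-OHT replicate 1 the change in p53ER cells was 0.36.

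Gadd45b, which in other mouse cells restrains JNK signalling, was among the brighter members. Its signal by probe set 1 was 522, 753 and 735 in p53ER cells with 4-OHT, against 691, 789 and 634 with vehicle. The groups overlapped, with a log2 change of -0.09 (interval -0.53 to 0.36). Probe sets 2 and 3 gave -0.09 and -0.28, with intervals that held 0. Without p53ER vehicle replicate 1, the outlying array that enters this comparison, they gave -0.21 and -0.71, and probe set 1 gave -0.10. In uninfected cells probe sets 1, 2 and 3 changed by 0.0033, -0.012 and -0.34 with 4-OHT. By probe set 3 the difference of the 4-OHT effect was 0.06, or -0.37 without the outlying arrays.

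Gadd45g was the member with the lowest change by its brightest probe set. Its signal was 395, 597 and 364 in p53ER cells with 4-OHT, against 507, 588 and 496 with vehicle. The groups overlapped, and replicate 2 was the highest under both treatments. This gave a log2 change of -0.26 (SE 0.27, interval -0.83 to 0.31), with an unadjusted limma p of 0.355.

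**Figure D3:**
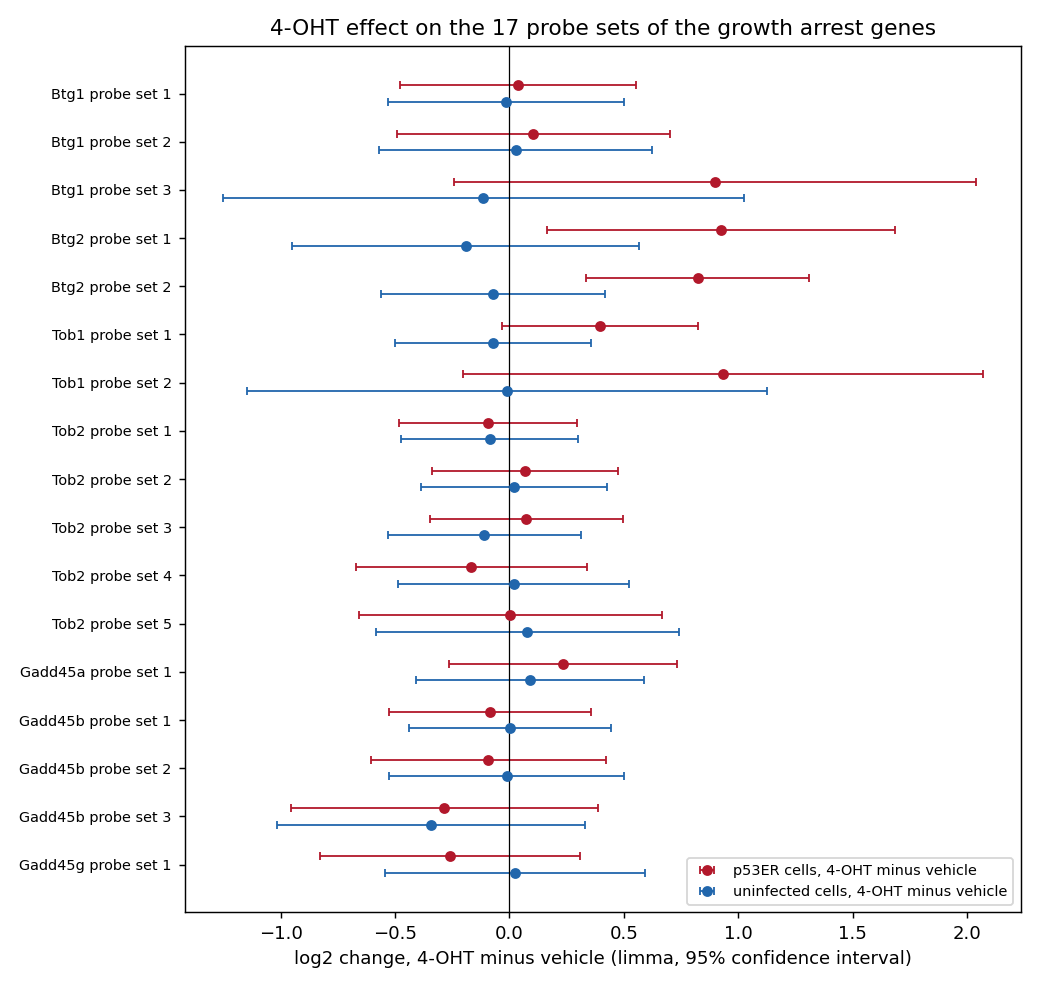
Log2 change with 4-OHT minus vehicle (x axis) for the 17 probe sets (y axis) in p53ER cells (red) and uninfected cells (blue), with 95% confidence intervals from limma. In p53ER cells the intervals of the Btg2 probe sets, 0.16 to 1.68 and 0.33 to 1.31, are the only ones of the 17 that do not hold 0.

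Against 0 h, which shares the 4-OHT arrays with the comparison above, p53ER cells with 4-OHT had the same member in front. The signal of Btg2 by probe set 2 was 166, 168 and 231 with 4-OHT, against 93.3, 114 and 80.9 at 0 h, with no overlap. Its log2 change was 0.94 (SE 0.23, interval 0.45 to 1.43), unadjusted limma p 0.000661 and adjusted p 0.673. By probe set 1 the 0 h arrays were at 101, 149 and 199, the groups overlapped and the change was 1.03 (SE 0.36), unadjusted p 0.0106 and adjusted p 1.00. Leaving out the outlying arrays, which include p53ER 0 h replicate 3, the changes were 0.83 by probe set 2 and 1.25 by probe set 1. For Tob1 the log2 change against 0 h by probe set 1 was 0.18 (interval -0.25 to 0.61), with 1 of 3 arrays above the 0 h array of its number, or 0.040 without the outlying arrays, and that of probe set 2 was -0.25 (interval -1.38 to 0.89). With vehicle against 0 h, the changes of Tob1 were -0.22 (interval -0.65 to 0.21) by probe set 1 and -1.18 (interval -2.32 to -0.04) by probe set 2. By limma 0 of the 17 probe sets were called, against 0.0155% of all, and 2 passed an unadjusted p of 0.05, against 4.16%. All 4-OHT arrays were above all 0 h arrays for 2 of the 17, Btg2 probe set 2 and Tob2 probe set 3, against 4.54% of all.

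Between cell types, both with 4-OHT, Btg2 was higher in p53ER than in uninfected cells by both probe sets without overlap. By probe set 2 the signals were 166, 168 and 231 in p53ER cells, against 78.5, 70.5 and 77.9 in uninfected cells. The log2 change was 1.26 (SE 0.23, interval 0.77 to 1.74), or 2.39-fold, with an unadjusted limma p of 2.86e-05 and an adjusted p of 0.0920, at rank 14 of all probe sets. By probe set 1 the change was 1.46 (SE 0.36, interval 0.70 to 2.22), or 2.75-fold, with an adjusted p of 0.580. With array weights probe set 2 passed the threshold, at an adjusted p of 0.0300. The p53ER arrays in this comparison are those used against vehicle, so the results are not separate evidence.

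Tob1 was also higher in p53ER than in uninfected cells with 4-OHT, at 159, 139 and 211 in p53ER cells against 103, 106 and 102 in uninfected cells by probe set 1, with no overlap. The log2 change was 0.67 (SE 0.21, interval 0.24 to 1.10), unadjusted limma p 0.00400 and adjusted p 1.00. It was higher before treatment too, where at 0 h its signal was 164, 161 and 121 in p53ER cells, against 105.5, 91.5 and 97.4 in uninfected cells. These groups did not overlap either, with a change of 0.57 (SE 0.21, unadjusted p 0.0120, adjusted p 1.00), or 0.66 without the outlying arrays. At 0 h all p53ER arrays were above all uninfected arrays for 4 of the 17 member probe sets, against 1244 of all 45037. With vehicle the signals were 137, 99.7 and 147 in p53ER cells, against 116, 99.4 and 113 in uninfected cells, and the change was 0.20 (interval -0.23 to 0.63). Whether the Tob1 difference varied between these conditions was tested only as the difference of the 4-OHT effect against vehicle, which was 0.47 (interval -0.14 to 1.07).

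Btg2 at 0 h did not differ by cell type beyond its spread, with changes of 0.10 (interval -0.39 to 0.59) by probe set 2 and 0.32 (interval -0.44 to 1.08) by probe set 1, p53ER minus uninfected. With vehicle these were 0.36 (interval -0.12 to 0.85) and 0.34 (interval -0.42 to 1.10). Without p53ER vehicle replicate 1 and the other outlying arrays, the changes with vehicle were 0.48 and 0.68. In order of the mean of probe set 1, Btg2 was at 8.24 in p53ER cells with 4-OHT, 7.32 in p53ER cells with vehicle, 7.21 in p53ER cells at 0 h, 6.97 in uninfected cells with vehicle, 6.89 in uninfected cells at 0 h and 6.78 in uninfected cells with 4-OHT. Below the first step, neighbours in this order differed by less than the SD of either group.

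By limma 0 of 17 member probe sets were called between the cell types with 4-OHT, against 0.0178% of all, 0 with vehicle, against 0%, and 0 at 0 h, against 0%. At an unadjusted p under 0.05 there were 4 with 4-OHT, all higher in p53ER cells, against 3.77% of all. These were both Btg2 probe sets, Tob1 probe set 1 and Tob2 probe set 5. With vehicle there was 1, Tob2 probe set 5, against 3.41%, and at 0 h there were 3, of which both Tob1 probe sets were higher and Tob2 probe set 3 lower in p53ER cells, against 4.49%. All p53ER arrays were above all uninfected arrays with 4-OHT for 5 of the 17, against 6.02% of all: the 4 just named and Tob2 probe set 3. Tob2 probe set 5 was higher in p53ER than in uninfected cells by 0.66 with 4-OHT, 0.74 with vehicle and 0.48 at 0 h, while the 2 brightest Tob2 probe sets differed by -0.07 and -0.0032 with 4-OHT.

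Time in culture with vehicle changed no member past the threshold. Against 0 h, 0 of 17 probe sets were called by limma in p53ER cells with vehicle, against 0% of all, and 0 in uninfected cells with vehicle, against 0.00222%. At an unadjusted p under 0.05 there was 1 in p53ER cells, the dim Tob1 probe set 2, which was lower, against 3.84% of all. There was 1 in uninfected cells, Tob2 probe set 1, against 6.68% of all. Its signal was 288, 266 and 289 in uninfected cells with vehicle, against 201, 255 and 186 at 0 h, a log2 change of 0.40 (SE 0.19, adjusted p 0.744) with no overlap, or 0.53 without the outlying arrays. In uninfected cells all vehicle arrays were above all 0 h arrays for 4 of the 17 probe sets, against 1473 of all 45037. The median log2 change of the 17 was 0.14 in p53ER cells and 0.15 in uninfected cells, and that of all probe sets was -0.05 and -0.11. Btg2 changed by 0.12 and 0.10 in p53ER cells and by -0.15 and 0.08 in uninfected cells, by probe sets 2 and 1. Without the outlying arrays the p53ER values were 0.13 and 0.67, so for probe set 1 the vehicle value depends on which arrays are kept.

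Some of the spread between arrays followed the replicate number. Replicate 3 was the highest of its group in all 6 groups for 2 of the 17 probe sets, Btg1 probe set 1 and Btg2 probe set 1, as it was for 2.18% of all probe sets. It exceeded the mean of replicates 1 and 2 by 0.48 for Btg1 and by 0.74 for Btg2, the second of which is close to the change with 4-OHT itself. By the other Btg2 probe set, probe set 2, replicate 3 was the highest in 2 of the 6 groups, with a mean excess of 0.13. For Gadd45g replicate 3 was the highest in 0 groups and lay 0.36 below the mean of the others. Without replicate 3 of every group the change of Btg2 in p53ER cells with 4-OHT against vehicle was 1.00 by probe set 1 and 0.88 by probe set 2. What the replicate number stands for is not in the labels.

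**Figure D4:**
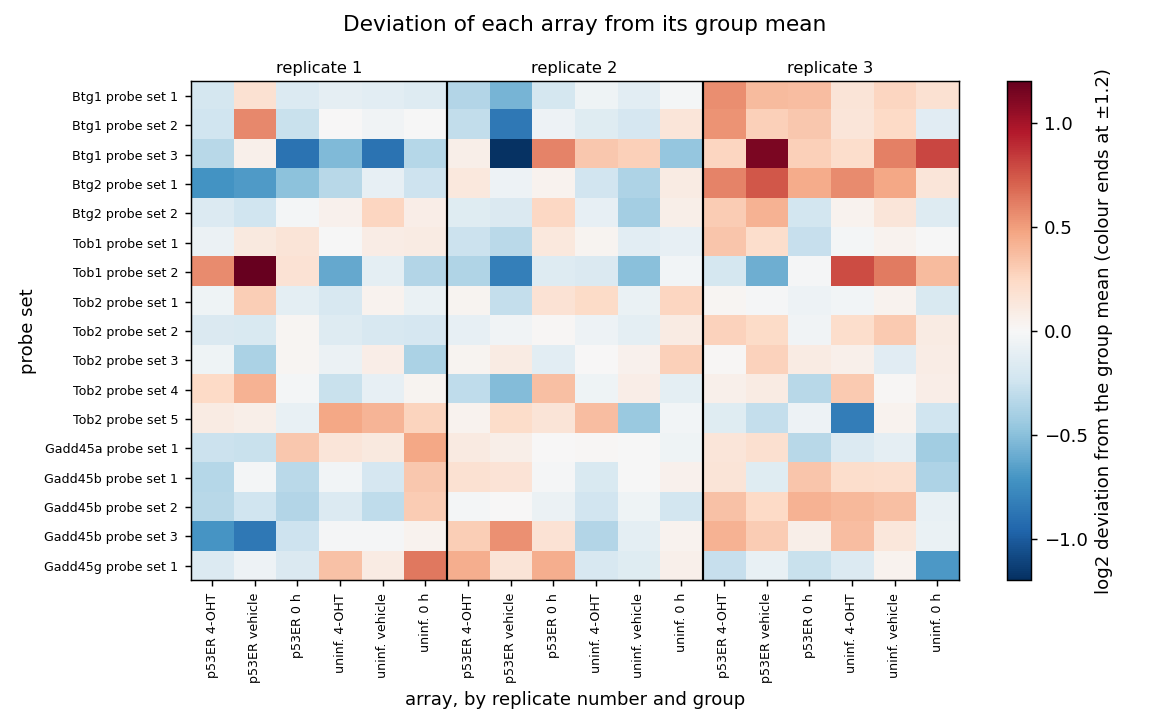
Deviation of each array from the mean of its group, in log2 units, for the 17 probe sets (y axis) and the 18 arrays ordered by replicate number (x axis). Colours end at 1.2 and the largest deviation is 1.40. Btg1 probe set 1 and Btg2 probe set 1 are above their group means in all 6 replicate 3 arrays.

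Among the members, the brightest probe sets of Btg1, Btg2 and Tob1 varied together over the 18 arrays, with r of 0.63 for Btg1 and Btg2, 0.60 for Btg2 and Tob1 and 0.59 for Btg1 and Tob1. Gadd45g ran the other way from these genes, with r of -0.62 with Btg1, -0.43 with Tob1 and -0.40 with Btg2. Gadd45a followed Tob1 with r = 0.50 and Btg2 with r = 0.33. These values describe arrays that share groups, replicate numbers and scaling, and they mix treatment with the replicate pattern above.

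Among 13137 other genes in the brighter 60%, those most like Btg2 over the 18 arrays were Eda2r, a death receptor family member and p53 target, with r = 0.90, Cdkn1a with r = 0.89 and Junb, a subunit of the AP-1 transcription factor, with r = 0.89. Over the 6 group means they were P2rx7, Man1a and Ei24, each with r of 0.99. The best match over 6 means was as high for members with little change. For Tob2 it was Pstpip2 (r = 0.995) and for Gadd45b Psmd2 (r = 0.992), so such values are not particular to Btg2. The correlations over the 18 arrays used Btg2 probe set 1, where replicate 3 was the highest in all 6 groups. For Cdkn1a, too, replicate 3 was the highest array of every group. These correlations therefore mix treatment with the replicate pattern, and likeness by Btg2 probe set 2 was not analysed. The genes most like Btg1 over the arrays were Procr (r = 0.92), Sh3bgrl2 (0.91) and Ptgfrn (0.90), and those most like Tob1 were Lpin1 (0.82), Zfp263 (0.80) and Apaf1 (0.79). For Tob2 they were D030056L22Rik (0.80), Cxcl3 (0.79) and Xpot (0.77). Those most like Gadd45a were C9 (0.87), Msmo1 (0.85) and Nmur1 (0.84), those most like Gadd45b were Gm11110 (0.76), Vrk2 (0.72) and Zfp963 (0.72), and those most like Gadd45g were Amotl2 (0.88), Pgam2 (0.83) and Csf1r (0.78).

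Among the partners of the proteins, none passed the threshold with 4-OHT against vehicle in p53ER cells without the replicate block, and Cdkn1a passed it with the block (adjusted p 0.00256). Of 17 genes of the CCR4-NOT complex and poly(A) machinery, 16 were measured, and by limma 0 were called and 0 passed an unadjusted p of 0.05. Their median log2 change was 0.02, and the values farthest from 0 were those of Cnot6, a deadenylase subunit, at 0.58 (SE 0.48), and Prmt1, an arginine methyltransferase that binds Btg1 and Btg2, at -0.42 (SE 0.24). Of 15 genes for GADD45 partners and the p38 and JNK kinases, 12 were measured, 0 were called and 1 passed an unadjusted p of 0.05, Cdkn1a. Their median was -0.04, and next to Cdkn1a the largest change was that of Map2k6, a kinase of p38, at 0.64 (SE 0.66). Of 17 factors known to act on these genes, 15 were measured, with 0 called, 0 at an unadjusted p of 0.05 and a median of -0.03. The largest changes were those of Ddit3, an integrated stress response factor, at 0.34 (SE 0.24) and Egr1, an immediate early factor, at 0.25 (SE 0.33). Listed genes without a probe set of their own were not analysed here.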

How the data were processed

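The authors deposited linear-scale signal intensities made with MAS5, per the submitters' processing notes, which give no version. How arrays were scanned or scaled before deposit is not given in the sources used here. Probe sets were named from the platform annotation: of 45037 probe sets other than the 64 controls, 34945 had 1 gene, 932 several and 9160 none. The members, the partner and marker lists, the tests and the alternatives were chosen with earlier results of these data known.

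Each array was scaled to the mean of the arrays' 2% trimmed means and used as log2 after adding an offset. A model of 6 group means over 18 arrays (12 residual degrees of freedom, 9 comparisons) was fitted in limma, whose variance prior was trended and robust, with two-sided p-values. Every probe set of a member was taken, and each member is described by its brightest one. From each partner list, genes with a called probe set and otherwise the 2 largest changes were named, and for likeness the 3 highest correlations.

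Arrays of the same replicate number deviated together (every r above 0.1) for p53ER 4-OHT against p53ER vehicle (r from 0.15 to 0.31). The same held for p53ER 4-OHT against p53ER 0 h (0.15 to 0.30) and uninfected 4-OHT against uninfected vehicle (0.14 to 0.41). In the other 6 comparisons the lowest r was under 0.1, between -0.16 and 0.092. For p53ER against uninfected cells with 4-OHT, r ran from 0.092 to 0.30. The pairing comes from the data and not from the labels, so the block served as an alternative. The pipeline was tested on simulated data. Alternatives were a larger offset (20%), no offset, quantile normalization, a filter on dim probe sets, 1 probe set per gene, the block, only the groups compared, another variance prior, array weights and leaving out arrays. The tools were limma 3.58.1, statmod 1.5.0 and data.table (version 1.17.8) in R 4.3.3, and matplotlib 3.10.9 in Python 3.11.15.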

Additional observations from a re-analysis of the deposited data

How the results depend on the processing

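The count of member probe sets called stayed at 0 in 8 of the 9 comparisons under every alternative run. Between p53ER and uninfected cells with 4-OHT it was 2 with the replicate block, where 24 of 45037 probe sets (0.0533%) were called, 1 with array weights, where 22 were, and 2 without the 3 arrays that lay apart with the replicate block, where 42 were. With the replicate block the adjusted p of Btg2 there was 0.00504 by probe set 1 and 0.0436 by probe set 2, but one pair of arrays correlated with an r of 0.092, so the numbers were not taken to pair these samples. Of the 18 arrays, 15 had their highest correlation of deviations with one of the same number. In the comparisons where the numbers pair the samples the block changed no member's call.

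Changes near 0 turned sign under some settings, with none called, and the cause was not tested. For Tob2 the difference of the 4-OHT effect was 0.019 with quantile normalization, 0.014 with array weights, 0.14 without the 3 arrays and 0.18 with the block added. Its change in p53ER cells with 4-OHT against vehicle was 0.056 and 0.090 in those last settings, and with vehicle against 0 h it was -0.019 and -0.064. With the 3 arrays left out and the block, the difference of the 4-OHT effect was -0.056 for Gadd45a, and Btg1 in p53ER vehicle against 0 h was -0.0046. Without replicate 3 of every group, Btg1 was -0.054 in p53ER cells with 4-OHT against vehicle and -0.090 for the difference, Btg2 with vehicle against 0 h was -0.044 in p53ER cells and -0.079 in uninfected cells, and Gadd45a in p53ER vehicle against 0 h was -0.10.

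Leaving out each array in turn gave, in p53ER cells with 4-OHT against vehicle, -0.24 to 0.23 for Btg1, -0.24 to 0.056 for Tob2 and -0.18 to 0.084 for Gadd45b. For the difference of the 4-OHT effect it gave -0.23 to 0.24 for Btg1, -0.15 to 0.14 for Tob2 and -0.19 to 0.081 for Gadd45b. For p53ER vehicle against 0 h it gave -0.045 to 0.42 for Btg1, -0.27 to 0.44 for Btg2, -0.0017 to 0.32 for Gadd45a, -0.023 to 0.30 for Gadd45b and -0.025 to 0.33 for Gadd45g. For uninfected vehicle against 0 h it gave -0.15 to 0.27 for Btg2, -0.26 to 0.086 for Gadd45b and -0.56 to 0.10 for Gadd45g. With 3 arrays a group, intervals were wide, such as -0.03 to 0.82 for Tob1 in p53ER cells with 4-OHT against vehicle, which limits what could be detected.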
